A study of Homo sapiens with 12 samples.

Results

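The SLC25 family comprises the carriers that move metabolites, nucleotides, inorganic ions and cofactors across the inner mitochondrial membrane. The members analysed here were the protein-coding genes of GENCODE release 44 whose symbol starts with SLC25A and a number, and 48 of the 60609 genes counted in each library met this rule. Of these, 38 had enough reads to be tested, among 13895 genes tested in all. Each carrier was placed by its known substrate into 1 of 11 groups.

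The data were from K562, an established erythroleukemic line derived from human chronic myeloid leukemia. Cells were treated with the vehicle DMSO (3 libraries) or with 10 μM FT671, which inhibits the deubiquitinating enzyme USP7 (3 libraries), and RNA was collected after 48 h in both groups. The labels name no genetic modification in either group, and all 6 libraries come from this single line. The study examined USP7 as a partner of the Polycomb complex PRC1.1, and the comparison asks which carrier transcripts differed when USP7 was inhibited.

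Most SLC25 proteins share a fold of repeated membrane-spanning modules and work as exchangers, in which 1 substrate enters the matrix as another leaves. They are encoded in the nucleus, made in the cytosol and brought to the inner membrane through the outer membrane receptor TOMM70, the small TIMM chaperones of the intermembrane space and the TIM22 complex. In erythroid cells such as K562, the mitoferrins and the glycine carrier SLC25A38 supply heme synthesis inside the mitochondrion, and ADP/ATP exchange links oxidative phosphorylation to the rest of the cell.

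Total counts were between 4555220 and 14250500 per library, and 3 counts, taken as the smallest detectable level, corresponded to between 0.211 and 0.659 CPM (counts scaled to a common library size). This floor covers counting error only. DMSO replicate 3 stood apart from the other DMSO libraries, as its counts differed from those of replicates 1 and 2 with chi-square/df values of 7.55 and 8.73, compared with 2.94 between replicates 1 and 2. Markers fixed for the erythroid lineage summed to between 683 and 795 CPM in DMSO and between 725 and 781 CPM in FT671-treated cells, and 10 of 11 were tested, of which 3 were higher and 6 lower. Lymphoid markers summed to 19.0 to 23.7 CPM in DMSO and 26.9 to 32.9 CPM in FT671, with 2 of 8 at 0 in all libraries. Most of this sum was CD3D, with means of 18.3 CPM in DMSO and 25.6 CPM in FT671. Monocyte and granulocyte markers summed to 59.1 to 62.5 CPM and 76.8 to 79.4 CPM, with ELANE at 0, and fibroblast markers to at most 2.91 CPM, with 3 of 6 at 0. Most of the monocyte and granulocyte sum was LYZ (means of 52.7 CPM in DMSO and 73.8 CPM in FT671), while ITGAM was lower (7.72 and 4.16 CPM). The part of these differences in the carrier results was not tested.

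USP7 inhibition was followed by changes in both directions within the family. The ornithine carrier SLC25A15 and the uncoupling protein-like carrier SLC25A30 rose to about the same extent, with log2 fold changes of 1.08 and 1.04, and the dicarboxylate carrier SLC25A10 and the citrate carrier SLC25A1 rose by 0.97 and 0.70. The branched-chain amino acid carrier SLC25A44, the folate carrier SLC25A32, the mitoferrin SLC25A28 and the coenzyme A carrier SLC25A42 fell, with log2 fold changes of -0.95, -0.94, -0.92 and -0.87. In edgeR's quasi-likelihood test at an adjusted p of 0.05, 9 of the 38 tested carriers were higher and 9 were lower. The test called 50.1% of all tested genes, 23.6% higher and 26.5% lower, so the 23.7% of carriers called in each direction was close to the background. With a correction for gene length the split was 12 higher and 6 lower, beside 3843 and 3310 of all tested genes. With that correction and the replicate number as a block it was 14 and 6, beside 3911 and 3388. With a GC correction and the block it was 12 and 7, beside 4025 and 3725. Without DMSO replicate 3 it was 11 and 10, beside 3830 and 4100. Without FT671 replicate 2 it was 6 and 5, beside 2743 and 3195. In the main fit, 3276 of all tested genes were higher and 3687 lower. The median log2 fold change of the 38 carriers was 0.11, beside -0.01 for all tested genes. As RNA was measured in bulk, a lower level per cell and fewer cells with the transcript cannot be told apart. The replicates are described in the paper as independent experiments, and p-values measure the spread between these libraries.

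At the stricter adjusted p of 1e-05, SLC25A15 and SLC25A1 were higher, beside 5.92% of all tested genes past that threshold (1.79% higher and 4.13% lower). Both lost this stricter call when any library other than DMSO replicate 3 was left out, and without DMSO replicate 3 there were 3 carriers higher and 3 lower past it. That fit also called more of all tested genes at 0.05 (7930, beside 6963 in the main fit), and its share of all genes past 1e-05 was not counted. The number of carriers called lower at 1e-05 was 0 by edgeR (9 were lower at an unadjusted p of 0.05) and 1 by DESeq2. The 3 FT671 libraries lay above all 3 DMSO libraries for 10 of the 38 carriers and below them for 9, beside 26.8% and 30.3% of all tested genes (57.1% in either direction). Every carrier called at 0.05 had libraries that did not overlap between the groups except SLC25A53. The oxoadipate carrier SLC25A21 and the coenzyme A-related carrier SLC25A16 did not overlap either but missed the threshold. SLC25A21 passed it without DMSO replicate 3 (edgeR adjusted p = 0.0115).

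**Figure D1:**
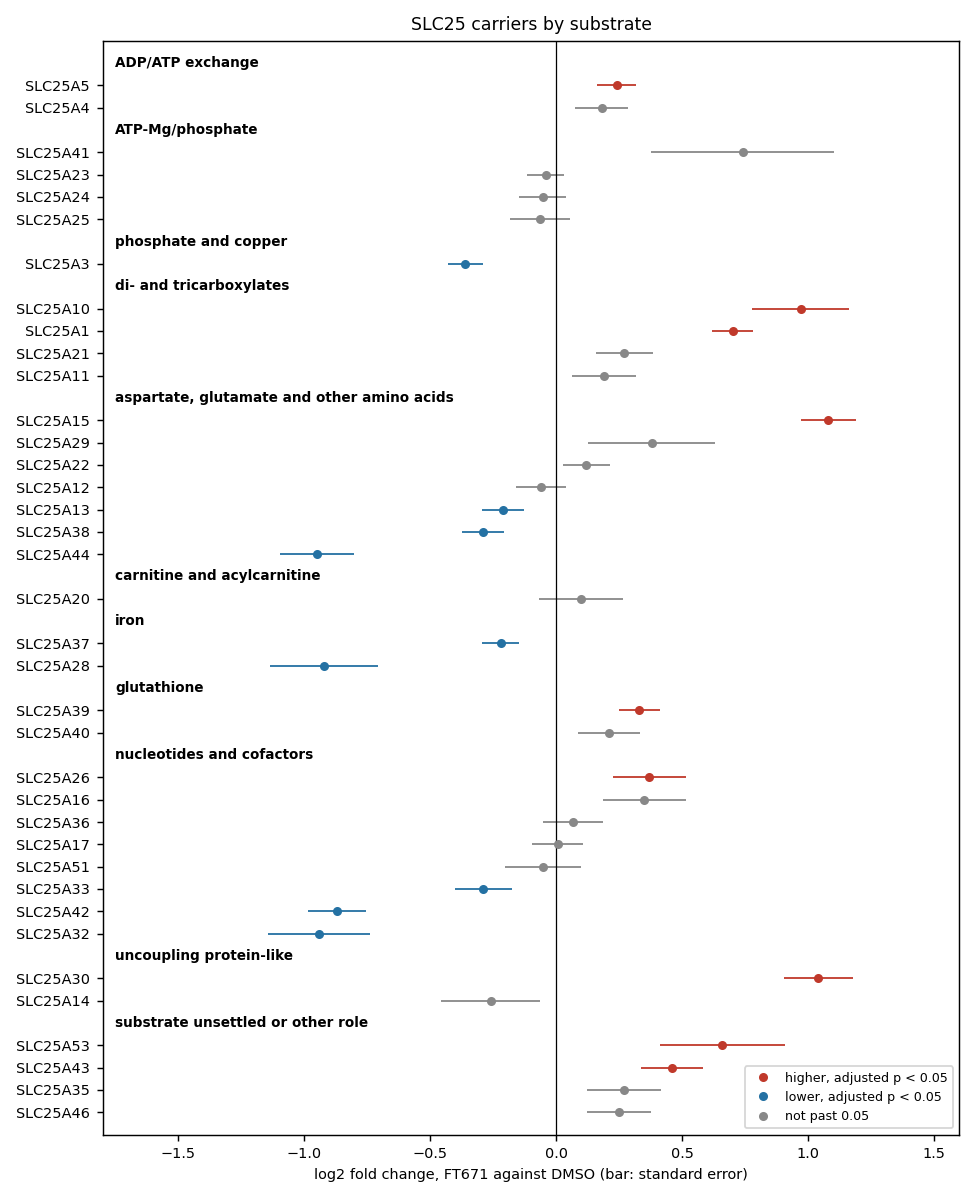
Log2 fold change of each reported carrier (x axis, FT671 against DMSO, n = 3 libraries each) with its standard error, in groups by substrate. Red and blue points passed an adjusted p of 0.05, and the largest differences lie near 1 in the ornithine, uncoupling protein-like and dicarboxylate carriers and near -0.9 in SLC25A44, SLC25A32, SLC25A28 and SLC25A42.

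Carriers of di- and tricarboxylates link the tricarboxylic acid cycle to the cytosol. SLC25A1 exports citrate, the source of cytosolic acetyl-CoA for lipid synthesis, and lies at chr22:19175581-19178739 (hg38). Its expression was 518, 505 and 424 CPM in DMSO replicates 1, 2 and 3 and 810.2, 782 and 769 CPM in FT671 replicates 1, 2 and 3. All FT671 libraries lay above the highest DMSO library, and DMSO replicate 3 was the lowest of the 6. The log2 fold change was 0.70 ± 0.08 (SE; edgeR adjusted p = 8.24e-06). SLC25A10, which exchanges malate or succinate for phosphate, was less abundant, at 6.37, 5.13 and 4.25 CPM in DMSO and 12.7, 8.84 and 10.8 CPM in FT671. Its groups did not overlap, and it rose by 0.97 on the log2 scale (SE 0.191, edgeR adjusted p = 8.16e-04). An unnamed protein-coding gene, ENSG00000262660, shares 1221 exon bases with SLC25A10 on the same strand and had 0 counts. The oxoglutarate carrier SLC25A11 (log2 fold change 0.19) and SLC25A21 (0.27, edgeR adjusted p = 0.0631) did not pass the test. SLC25A11 was called higher with the GC correction (0.27, edgeR adjusted p = 0.016) and ranged from 0.062 without DMSO replicate 3 to 0.31 without DMSO replicate 2. SLC25A21 shares 1442 exon bases with PAX9 on the opposite strand, and the strand setting of the counting is not given in the sources used here.

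The amino acid carriers were divided, with 1 higher, 3 lower and 3 not called among the 7 tested. Of all tested genes, 23.6% were higher and 26.5% lower. SLC25A15 (chr13:40789412-40812460) exchanges ornithine for citrulline, a step of the urea cycle. It had 21.3, 19.1 and 20.7 CPM in DMSO and 47.7, 42.6 and 40.2 CPM in FT671. The lowest FT671 library was well above the highest DMSO library, and the log2 fold change was 1.08 ± 0.109 (SE; edgeR adjusted p = 2.75e-06). SLC25A29, which carries basic amino acids including ornithine, differed by 0.38 without passing the test, and by 0.24 without FT671 replicate 1 and 0.62 without DMSO replicate 1. SLC25A38 (chr3:39383370-39397351), which imports the glycine used in the first step of heme synthesis, had the highest mean CPM of this group in DMSO, close to that of SLC25A13 (70.9 and 68.5 CPM), and in FT671 SLC25A13 had the higher mean (57.8 and 59.4 CPM). SLC25A38 had 71.8, 72.8 and 68.0 CPM in DMSO and 56.0, 56.3 and 61.2 CPM in FT671. All FT671 libraries lay below all DMSO libraries (log2 fold change -0.29 ± 0.0846, edgeR adjusted p = 0.0108), and the call was lost without FT671 replicate 2 (edgeR adjusted p = 0.0596). SLC25A44, the importer of branched-chain amino acids, fell from 18.6, 21.0 and 19.6 CPM to 7.77, 10.8 and 11.2 CPM. This was by value the largest fall of the family (log2 fold change -0.95 ± 0.146, edgeR adjusted p = 1.13e-04), and the groups did not overlap. The calcium-regulated aspartate/glutamate exchangers differed little, with SLC25A13 lower by a log2 fold change of -0.21 (edgeR adjusted p = 0.0474) and SLC25A12 at -0.059. The call of SLC25A13 was lost when any library but DMSO replicate 3 was left out, with edgeR adjusted p between 0.0779 and 0.2, and in most other fits.

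SLC25A22, a mitochondrial glutamate carrier, is a locus at which chromatin was examined by ChIP. The gene lies at chr11:790475-798281. It had 47.0, 42.8 and 41.4 CPM in DMSO and 47.1, 49.8 and 46.5 CPM in FT671, and the groups overlapped. The log2 fold change was 0.12 ± 0.0947 (edgeR adjusted p = 0.316), and it passed 0.05 with a GC correction (0.21, adjusted p = 0.0436). SLC25A22 shares 452 exon bases with PANO1 on the opposite strand. The ChIP primers for this locus are shown because they place the chromatin measurement within the gene, and no letters are capitalized. They match hg38 at chr11:797892-797912 on the minus strand and chr11:797768-797787 on the plus strand and enclose 145 bases, all within annotated exons of SLC25A22 and of PANO1, 369 to 513 bases downstream of the SLC25A22 start.
SLC25A22 forward: tcaccggacatctgtggacac
SLC25A22 reverse: caaaggagaagcgggttggg

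Upstream sequence is given for SLC25A1 and SLC25A15, the carriers past the stricter threshold, as the 250 bases before the gene start in hg38. Capitals mark the GC box GGGCGG and the CCAAT box, each on either strand, and overlapping matches run together. SLC25A1 (chr22:19178740-19178989, minus strand) holds 8 GC boxes and 1 CCAAT box, and SLC25A15 (chr13:40789162-40789411, plus strand) holds no match to any of the 6 motifs searched.
SLC25A1: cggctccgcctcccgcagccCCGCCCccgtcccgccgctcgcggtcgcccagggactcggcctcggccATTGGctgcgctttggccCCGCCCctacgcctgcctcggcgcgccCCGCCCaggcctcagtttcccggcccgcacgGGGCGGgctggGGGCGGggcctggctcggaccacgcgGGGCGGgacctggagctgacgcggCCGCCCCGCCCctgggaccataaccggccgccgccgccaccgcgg
SLC25A15: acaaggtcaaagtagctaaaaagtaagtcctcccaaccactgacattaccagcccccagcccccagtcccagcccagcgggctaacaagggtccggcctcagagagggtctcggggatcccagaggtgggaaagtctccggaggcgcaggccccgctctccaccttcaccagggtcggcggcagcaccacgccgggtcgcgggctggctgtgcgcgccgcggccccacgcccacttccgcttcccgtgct
In windows of this length, a GC box was found in 27 of 48 carriers (56.2%, beside 49.0% of 19970 protein-coding genes), a CCAAT box in 22 (45.8%, beside 33.2%), the E-box CACGTG in 7 (14.6%, beside 7.17%) and the cyclic AMP response element TGACGTCA in 3 (6.25%, beside 1.89%). The E-box was present in 4 of the 9 lower carriers (SLC25A13, SLC25A32, SLC25A33 and SLC25A38). It was present in 0 of the 9 higher and 2 of the 20 uncalled carriers. A GC box was present in 7 of the 9 higher, 3 of the 9 lower and 11 of the 20 uncalled carriers. In that order the numbers were 4, 5 and 10 for the CCAAT box and 0, 2 and 1 for the cyclic AMP response element. No carrier window held the ETS motif CCGGAAGT or the amino acid response element TGATGCAAT, which 3.70% and 0.190% of the protein-coding genes held. The shares of all higher, lower and uncalled genes that hold each motif were not counted. Of the lower carriers with an E-box, SLC25A13 and SLC25A33 lost their call in 14 and 13 of 18 alternative fits. These matches are a description of the letters.

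The heme-related carriers of iron were both lower, beside 26.5% of all tested genes. SLC25A37 (mitoferrin-1; chr8:23528956-23575463), the main iron importer of erythroid mitochondria, had 137, 142 and 151 CPM in DMSO and 124, 121 and 123 CPM in FT671. The groups did not overlap but lay close together (log2 fold change -0.22 ± 0.0725, edgeR adjusted p = 0.0217). The call was lost with the gene length correction, where the log2 fold change was -0.089, and without any single FT671 library (edgeR adjusted p between 0.0526 and 0.0911). SLC25A28 (mitoferrin-2), the more widely expressed paralog, fell further, from 5.61, 5.04 and 4.99 CPM to 2.89, 2.71 and 2.77 CPM (log2 fold change -0.92 ± 0.214, edgeR adjusted p = 0.00274). The ratio of SLC25A37 to SLC25A28 counts was 24.4, 28.1 and 30.3 in DMSO and 43.0, 44.9 and 44.5 in FT671. Both transcripts were lower, and their ratio was higher in every FT671 library than in any DMSO library. SLC25A38, the glycine carrier described above, was lower as well.

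**Figure D2:**
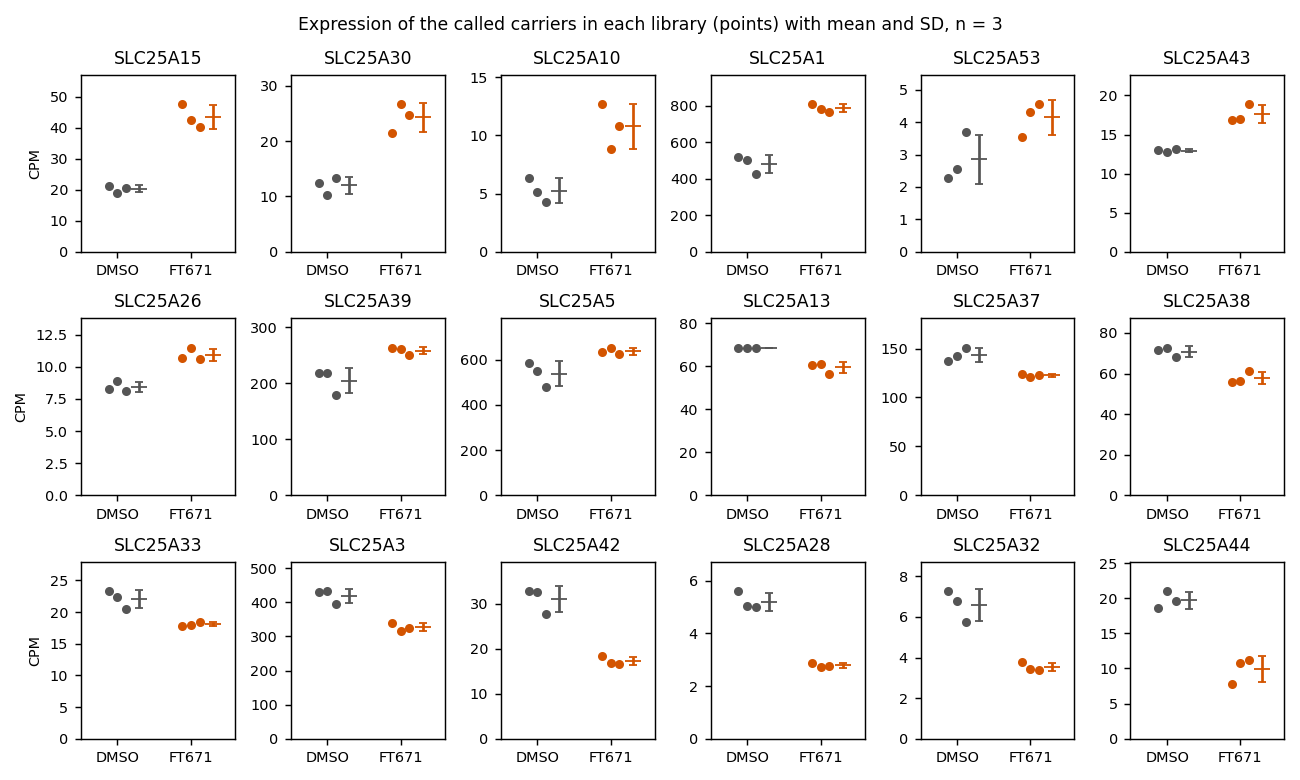
CPM (y axis, from 0) of the 18 called carriers in each library, with the DMSO libraries in grey and the FT671 libraries in orange in the order of replicates 1 to 3, and the mean and SD (n = 3) beside them. Apart from SLC25A53, the points of the groups do not overlap.

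Phosphate and nucleotide exchange supply the ATP synthase. SLC25A3 (chr12:98593591-98606379) brings phosphate and copper into the matrix. It had 430.2, 433 and 396 CPM in DMSO and 340.5, 316 and 326 CPM in FT671. Every FT671 library lay below every DMSO library, and the log2 fold change was -0.36 ± 0.0691 (edgeR adjusted p = 6.67e-04). SLC25A5 (chrX:119468422-119471396), the ADP/ATP translocase of dividing cells, had 587, 549.6 and 479.5 CPM in DMSO and 633, 654 and 625 CPM in FT671. DMSO replicate 3 was again the lowest, and the rise was small (log2 fold change 0.24 ± 0.0782, edgeR adjusted p = 0.0199). The call was lost without FT671 replicate 2 (edgeR adjusted p = 0.0856), with no filter on low counts (0.0605) and with the gene length correction (0.096). SLC25A5 shares 205 exon bases with the antisense transcript SLC25A5-AS1. The muscle-type translocase SLC25A4 differed by 0.18 without passing the test, and the germ-cell translocase SLC25A31 had 3 counts in all. SLC25A6 lies in the pseudoautosomal region and was listed at 0 in every library, as were all 45 genes of that region in both of their copies, so its 0 is no measure of its expression.

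The 4 carriers of ATP-Mg and phosphate, of which SLC25A23, SLC25A24 and SLC25A25 are regulated by calcium, did not pass 0.05 in edgeR's test without covariates, at an unadjusted p of 0.05 or in DESeq2. SLC25A23 (chr19:6436079-6465203), the most abundant by CPM, had 134, 141 and 143 CPM in DMSO and 137, 128 and 139 CPM in FT671. The groups overlapped (log2 fold change -0.042 ± 0.0725, edgeR adjusted p = 0.658). SLC25A24 and SLC25A25 were at -0.054 and -0.065, while SLC25A41 was at 0.74 with a standard error of 0.364 and at most 3.61 CPM in a library. SLC25A41 was called higher without FT671 replicate 3 (log2 fold change 1.21, edgeR adjusted p = 0.012) and with counts thinned to the smallest library (1.03, adjusted p = 0.0326).

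Of the carriers of nucleotides and cofactors, 1 was higher, 3 were lower and 5 were not called among the 9 tested. Among all tested genes the shares were 23.6% higher and 26.5% lower. SLC25A42, which carries coenzyme A and adenosine phosphates, fell from 32.8, 32.5 and 27.7 CPM in DMSO to 18.4, 16.8 and 16.6 CPM in FT671 (log2 fold change -0.87 ± 0.115, edgeR adjusted p = 3.28e-05). SLC25A16, a protein linked to coenzyme A uptake, was at 6.99, 6.87 and 7.76 CPM in DMSO and 10.4, 8.84 and 8.40 CPM in FT671 (log2 fold change 0.35, edgeR adjusted p = 0.0944). The count ratio of SLC25A16 to SLC25A42 therefore went from 0.235 ± 0.039 to 0.533 ± 0.0309 (SD, n = 3), without overlap. SLC25A32, the carrier of folate and FAD, was at 7.27, 6.78 and 5.73 CPM in DMSO and 3.78, 3.43 and 3.40 CPM in FT671. Its fall (log2 fold change -0.94 ± 0.202, edgeR adjusted p = 0.0015) stood beside one of -0.44 in DCAF13, which overlaps 406 of its exon bases on the opposite strand. On the same strand, the unnamed protein-coding gene ENSG00000285982 shares 2547 bases (69.7% of the SLC25A32 exons) and had 0 counts. The pyrimidine nucleotide carriers were at -0.29 (SLC25A33, edgeR adjusted p = 0.046) and 0.066 (SLC25A36), and SLC25A33 lost its call when any library but DMSO replicate 3 was left out, with edgeR adjusted p between 0.098 and 0.165. SLC25A36 (chr3:140941830-140980995), the most abundant of the group by CPM, had 37.0, 36.6 and 48.4 CPM in DMSO and 40.4, 40.2 and 44.7 CPM in FT671. DMSO replicate 3 was the highest of the 6, and the groups overlapped (standard error 0.118, edgeR adjusted p = 0.665). The S-adenosylmethionine carrier SLC25A26 was higher by 0.37 (edgeR adjusted p = 0.0488), and this call was lost when any single library was left out (0.0662 to 0.136). SLC25A17, the peroxisomal cofactor carrier, and the NAD carrier SLC25A51 were at 0.0056 and -0.052. SLC25A52, a near-identical copy of SLC25A51, had 1 count in all, and reads shared by the pair could be lost or split.

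The glutathione carriers and the carnitine carrier are linked to redox balance and fatty acid oxidation. SLC25A39 (chr17:44319625-44324870), a glutathione importer, had 218, 218 and 179 CPM in DMSO and 264, 261 and 251 CPM in FT671. All FT671 libraries lay above all DMSO libraries (log2 fold change 0.33 ± 0.0818, edgeR adjusted p = 0.00412). Its paralog SLC25A40 differed by 0.21 (edgeR adjusted p = 0.167), and the count ratio of the pair overlapped between groups. Without DMSO replicate 3 SLC25A40 was called higher (0.34, edgeR adjusted p = 0.00394). SLC25A20 (chr3:48856926-48898904), which exchanges carnitine and acylcarnitine, had 14.6, 14.8 and 11.6 CPM in DMSO and 19.5, 14.3 and 12.6 CPM in FT671. Its libraries overlapped, with FT671 replicate 1 the highest (log2 fold change 0.10 ± 0.167, edgeR adjusted p = 0.64).

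Among the uncoupling protein-like carriers, SLC25A30 (chr13:45393316-45418455) rose from 12.5, 10.3 and 13.3 CPM in DMSO to 21.5, 26.7 and 24.7 CPM in FT671. The groups were well apart (log2 fold change 1.04 ± 0.136, edgeR adjusted p = 2.90e-05). The antisense transcript TPT1-AS1, which overlaps 98 of its exon bases, was higher by 0.62. SLC25A14 was at -0.26 without passing the test, and the ratio of SLC25A30 to SLC25A14 counts went from 1.69 ± 0.089 to 4.27 ± 0.584 (SD, n = 3) without overlap. SLC25A27, a carrier of neurons, had 0 counts in every library.

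The 4 tested carriers without a settled substrate lay between 0.25 and 0.66. SLC25A43 was higher by 0.46 (edgeR adjusted p = 0.00717), and lost the call without FT671 replicate 3 (edgeR adjusted p = 0.0541) and with counts thinned to the smallest library (0.058). SLC25A53 was higher by 0.66 (edgeR adjusted p = 0.04), but DMSO replicate 3, at 3.70 CPM, lay above FT671 replicate 1, at 3.55 CPM. This call was lost without DMSO replicate 1 or 2 or FT671 replicate 2 or 3, with edgeR adjusted p between 0.0938 and 0.19. SLC25A46 (chr5:110738136-110765161), an outer membrane protein of mitochondrial dynamics, had 20.6, 20.7 and 27.5 CPM in DMSO and 26.7, 28.1 and 25.8 CPM in FT671. DMSO replicate 3 lay among the FT671 libraries (log2 fold change 0.25 ± 0.127, edgeR adjusted p = 0.112), and without it SLC25A46 was called higher (0.36, edgeR adjusted p = 0.00632). SLC25A35 was at 0.27, was called higher without DMSO replicate 2 (0.43, edgeR adjusted p = 0.0382) and with the GC correction (0.36, adjusted p = 0.0132) and shares 1134 exon bases with RANGRF on the opposite strand.

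The remaining carriers were too low to test. SLC25A45 had 3 to 14 counts per library, SLC25A18 had 1 to 7, and SLC25A48 had 0 to 5. SLC25A34 had 5 counts in all, SLC25A2 and SLC25A47 had 1 each, and SLC25A6, SLC25A27, SLC25A31 and SLC25A52 are given above. Of 43 pseudogenes named after SLC25 genes, 21 had a count and 2 were tested, SLC25A1P5 (log2 fold change -0.77, 207 counts in all) and SLC25A24P1 (1.17, 74 counts). The parent carriers had far more counts, and SLC25A1 and its pseudogene differed in opposite directions.

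Levels between genes were compared as CPM per kb of exon. SLC25A6, listed at 0 as described above, could not be compared. In DMSO, SLC25A5 had the highest level, at 347 ± 35.2 CPM per kb (SD, n = 3), followed by SLC25A1 at 241 ± 25.6, SLC25A39 at 58.2 ± 6.30 and SLC25A3 at 47.2 ± 2.32. The DMSO libraries of each neighbouring pair in the order SLC25A5, SLC25A1, SLC25A39, SLC25A3, SLC25A23, SLC25A38 and SLC25A11 did not overlap. Next in order, SLC25A11, SLC25A13 and SLC25A37 were at 19.2, 18.5 and 17.9 CPM per kb, and the libraries of SLC25A13 overlapped those of both neighbours. With the length of the Ensembl canonical transcript in place of all exons, SLC25A5 was at 412 and SLC25A1 at 312 CPM per kb. SLC25A39 was then at 129.8 and SLC25A3 at 70.1, and SLC25A37 (30.7) lay above SLC25A11 (28.1). The order therefore depends in part on the length used. The level of SLC25A26 in the plot of levels per kb was set by 21792 exon bases, while its canonical transcript has 2035.

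**Figure D3:**
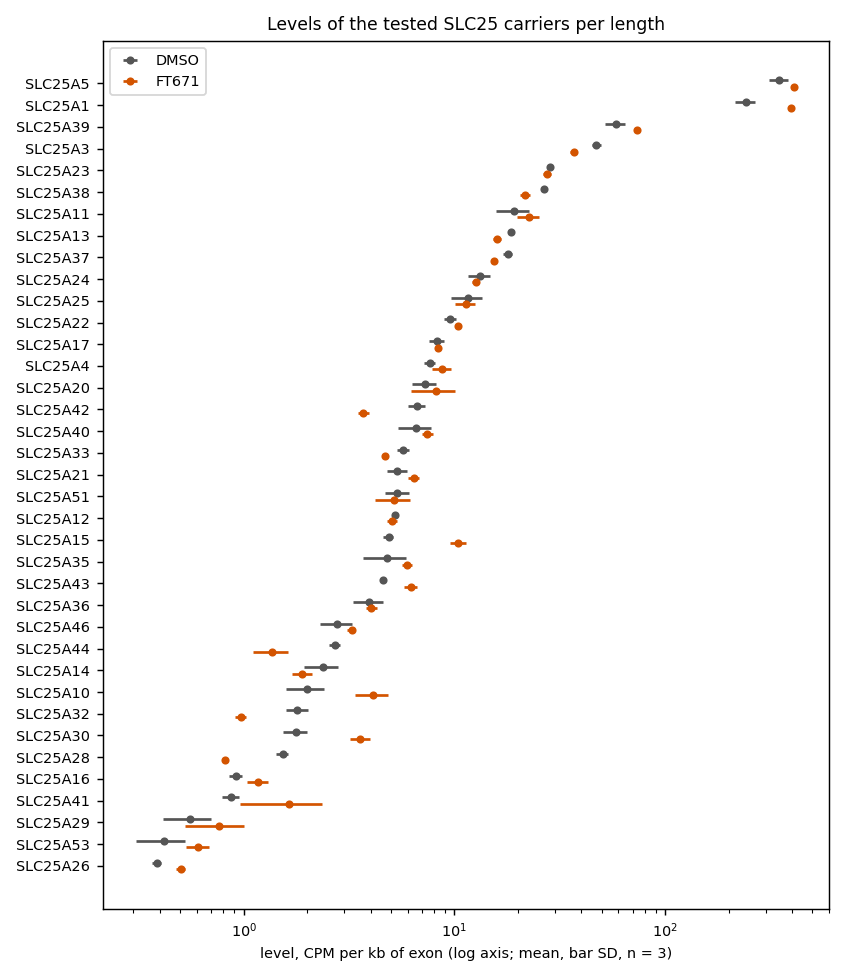
Level of each reported carrier in CPM per kb of annotated exon (x axis, log scale; mean, with the SD over n = 3 libraries as a bar) in DMSO (grey) and FT671 (orange), ordered by the DMSO level. SLC25A5 and SLC25A1 lie above 200 CPM per kb in both groups. SLC25A15, SLC25A10 and SLC25A30 lie to the right of their DMSO level in FT671, and SLC25A42, SLC25A44, SLC25A32 and SLC25A28 to the left.

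The summed expression of the 48 carriers was 2893, 2844 and 2615 CPM in DMSO and 3211, 3145 and 3100 CPM in FT671. SLC25A6 enters these sums at 0, which is no measure of its expression. The sums did not overlap, with a log2 ratio of the means of 0.18. SLC25A5, SLC25A1 and SLC25A3 together held 51.7% ± 1.78 of the sum in DMSO and 55.6% ± 0.0895 in FT671, and the sum without them was 1343 ± 23.6 and 1400 ± 24.7 CPM. Among the abundant carriers, the count ratio of SLC25A1 to SLC25A3 went from 1.15 ± 0.069 to 2.41 ± 0.0634, and that of SLC25A5 to SLC25A3 from 1.28 ± 0.0778 to 1.95 ± 0.109. Since such a ratio is taken within a library, it does not depend on the scaling of the libraries, and its size also holds the ratio of the gene lengths. It is not corrected for a length trend that differs between libraries. With the gene length correction the log2 fold changes of SLC25A1, SLC25A5 and SLC25A3 were 0.61, 0.14 and -0.22, beside 0.70, 0.24 and -0.36 in the main fit. The ratio of SLC25A10 to SLC25A11 went from 0.111 ± 0.017 to 0.194 ± 0.0287, and that of SLC25A12 to SLC25A13 from 0.470 ± 0.0103 to 0.523 ± 0.0104, both without overlap. The ratios of SLC25A5 to SLC25A4, SLC25A39 to SLC25A40, SLC25A15 to SLC25A29 and SLC25A36 to SLC25A33 overlapped between the groups. These pairs were chosen with the values of their genes known, and their ratios are given as a description.

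**Figure D4:**
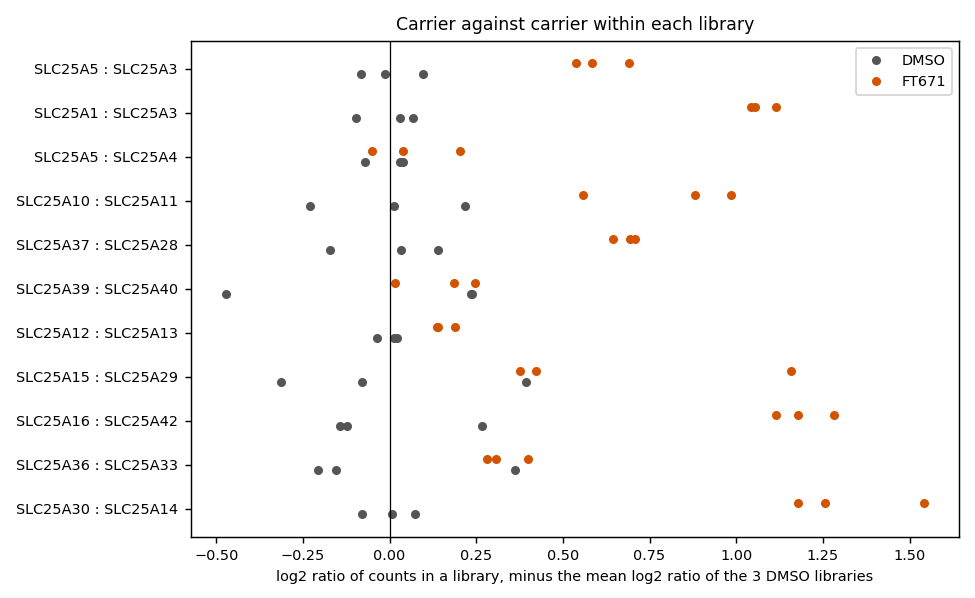
Ratio of the counts of a pair of carriers in each library, as its log2 minus the mean log2 ratio of the 3 DMSO libraries (x axis), with DMSO in grey and FT671 in orange. Among the pairs shown, the FT671 libraries lie furthest to the right for SLC25A30 to SLC25A14 and overlap the DMSO libraries for SLC25A5 to SLC25A4, SLC25A39 to SLC25A40, SLC25A15 to SLC25A29 and SLC25A36 to SLC25A33.

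The genes that bring carriers to the inner membrane were taken from a list written by hand. Of 10 such genes, 7 were higher by edgeR, beside 23.6% of all tested genes, with a median of 0.31 on the log2 scale, and the other 3 did not pass (TIMM10B 0.09, TIMM22 0.12 and TIMM29 -0.30). The largest rise was that of TIMM8A, an intermembrane space chaperone, from 7.97 ± 0.193 to 18.4 ± 2.01 CPM (log2 fold change 1.18 ± 0.142, edgeR adjusted p = 1.33e-05). TIMM13, its partner, rose by 0.75, TIMM10 by 0.67 and the receptor TOMM70 by 0.38. The calls of TIMM9 (0.26, edgeR adjusted p = 0.0353) and AGK (0.27, edgeR adjusted p = 0.0197) were less stable. TIMM9 lost its call in several fits, among them DESeq2 (adjusted p = 0.0714), the length correction (edgeR, 0.216) and no filter (edgeR, 0.146). AGK lost its call with no filter and without DMSO replicate 1 or FT671 replicate 2 or 3 (edgeR adjusted p between 0.0617 and 0.124). The voltage-dependent anion channels, through which metabolites cross the outer membrane, were all 3 higher, with VDAC2 at 0.54 ± 0.0761 (edgeR adjusted p = 5.74e-05), VDAC1 at 0.50 and VDAC3 at 0.39.

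Other inner membrane transporters outside the family were divided. Of 17 tested, 5 were higher and 4 lower, beside 23.6% and 26.5% of all tested genes, with a median of -0.02. The largest rise was that of SFXN3, a sideroflexin (0.86 ± 0.243, edgeR adjusted p = 0.00915), and the largest fall that of MCUB, an inhibitory subunit of the calcium uniporter (-0.89 ± 0.169, edgeR adjusted p = 6.12e-04). The pore subunit MCU and the heme-related ABC transporter ABCB10 both fell, with log2 fold changes of -0.30, and the pyruvate carrier subunit MPC2 rose by 0.31. Its partner MPC1 was higher by 0.22 (edgeR adjusted p = 0.0458) and lost the call without DMSO replicate 1 or any single FT671 library, with library totals, with no filter, with the length correction and in DESeq2 (adjusted p between 0.0736 and 0.255). MCU lost its call without FT671 replicate 2 (edgeR adjusted p = 0.0508), ABCB10 without DMSO replicate 1 or FT671 replicate 3 or after thinning (0.0516 to 0.0824), and SFXN3 in DESeq2 (0.0651). Without DMSO replicate 1, FT671 replicate 2 or FT671 replicate 3 the split was 3 higher and 2 lower. Among the 3 tested proteins that share the SLC25 fold under other names, UCP2 rose by 0.69 (SE 0.0749, edgeR adjusted p = 5.44e-06), from 88.2 ± 4.73 to 143 ± 3.42 CPM, and MTCH1 and MTCH2 were at -0.18 and 0.11 without passing the test.

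**Figure D5:**
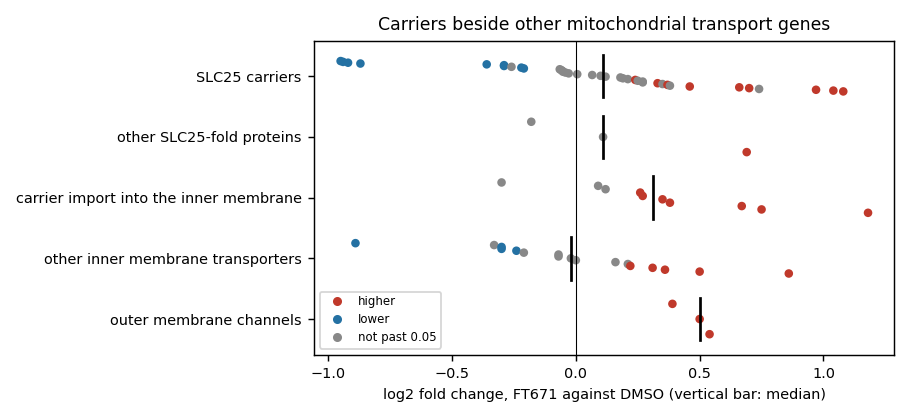
Log2 fold change (x axis, FT671 against DMSO) of every tested gene of the SLC25 family and of 4 lists of other mitochondrial transport genes, with red for higher and blue for lower at an adjusted p of 0.05 and a vertical bar at the median. The carriers and the other inner membrane transporters spread to both sides of 0, while the import genes and the outer membrane channels have medians of 0.31 and 0.50.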

How the data were processed

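Expression was measured by RNA-seq in 3 DMSO and 3 FT671 libraries of K562 cells. Total RNA was depleted of ribosomal RNA, and per the study's methods and the submitters' processing notes the reads were aligned to hg38 by STAR, and the authors deposited raw read counts per gene without normalization. The version, annotation and strand setting are not given in the sources used here. The 6 ChIP-seq samples of the series are not analysed here. Identifiers were matched to GENCODE release 44 (60295 of 60609 genes, with 0.0609% of the counts unmatched).

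Genes were filtered with edgeR's filterByExpr, scaled by TMM and compared with edgeR's quasi-likelihood test (edgeR 4.0.16, R 4.3.3) without covariates, with Benjamini-Hochberg adjustment over all 13895 genes. The threshold was 0.05, and 1e-05 that of the study's methods. The standard error is the log2 fold change divided by the square root of F. Ratios and sums were compared by an exact permutation test on their log2 values. With 3 libraries per group its smallest possible p is 0.1, so no ratio or sum could pass 0.05. On simulated counts the fit recovered 186 of 200 changed genes with 7 false calls among 13695 genes. A larger share of changed genes, such as the 50.1% called in these data, was not tested. Recovery of log2 fold changes as small as those of SLC25A13 (-0.21) and SLC25A5 (0.24) was not tested. The fit was also not tested with a library that stands apart from its group, as DMSO replicate 3 does.

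The members and lists were chosen with earlier results of these data known. The values of 1 tested carrier, which was not called, are not reported here, but it remains in the counts and medians. Values in each library, position, fold change, SE and adjusted p are given for carriers past 1e-05, for the highest CPM of each substrate group and for SLC25A22, and the other carriers are given by fold change and call. Library values beyond this rule (SLC25A10, SLC25A16, SLC25A28, SLC25A32, SLC25A42 and SLC25A44), the ratios and the genes named beside the largest rise and fall of the other lists were added after their values were seen. Alternatives were DESeq2's size factors, library totals, DESeq2's Wald test (DESeq2 1.42.0), no filter, a minimum of 10 counts per library, only protein-coding genes, the replicate block, loess corrections for length and GC content with and without the block, thinning to the smallest total and each library left out. The canonical transcript length was added after seeing the data.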

Additional observations from a re-analysis of the deposited data

How the results depend on the processing

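Of the 18 called carriers, 10 kept their call in all 18 alternative fits and 0 reversed. SLC25A13, SLC25A33, SLC25A26 and SLC25A53 lost it most often, and low counts limit the precision for SLC25A28, SLC25A32 and SLC25A53. Whether the replicate numbers pair the libraries was not settled by the counts. Deviations in same-numbered libraries had r = 0.115, -0.0605 and 0.14, and in the other pairs r lay between -0.168 and 0.125. DMSO replicate 2 was closer to FT671 replicate 1 (0.125) than to its own number. With the replicate block, 7135 instead of 6963 genes were called, 9 carriers were higher and 7 lower, and 14 of the 18 calls remained, while SLC25A35 (0.33, edgeR adjusted p = 0.0498) and SLC25A41 (0.92, 0.0353) gained a call as higher.

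The number of carriers higher at 0.05 was 14 with the gene length correction and the replicate block, beside 3911 of all tested genes. The number higher at 1e-05 was 1 with library totals, with at least 10 counts, with protein-coding genes alone and after thinning, and 4 with the GC correction and the block. The number lower at 1e-05 was 1 with DESeq2's Wald test and with the GC correction, and 2 with no filter. The share of all tested genes past 1e-05 was counted in the main fit only, so these numbers have no background beside them. Other inner membrane transporters higher numbered 2 with DESeq2's Wald test and 3 with no filter. The median for ATP-Mg/phosphate carriers was 0.048 and 0.066 with the length correction without and with the block, and 0.031 and 0.04 with the GC correction. That for amino acid carriers was 0.046 and 0.055 with the length correction. That for iron carriers was -0.60 with library totals, no filter and thinning, -0.50 with the length correction and both GC corrections, and -0.49 with the length correction and block. That for glutathione carriers was 0.24 with library totals, 0.23 with no filter and 0.31 with the length correction.

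With 1 library left out at a time, 6 to 11 carriers were higher and 5 to 10 lower at 0.05, and 0 to 3 higher and 0 to 3 lower at 1e-05. Of all tested genes, 2522 to 3830 were higher and 2972 to 4100 lower at 0.05. Import genes numbered 5 to 7 higher and 0 to 1 lower, other inner membrane transporters 3 to 5 and 2 to 5, other SLC25-fold proteins 1 and 0 to 1, and outer membrane channels 3 and 0. Medians ranged from 0.069 to 0.15 for all carriers, 0.15 to 0.27 for ADP/ATP, -0.059 to 0.0011 for ATP-Mg/phosphate, 0.46 to 0.52 for di- and tricarboxylates, -0.086 to -0.0043 for amino acids, -0.58 to -0.55 for iron, 0.25 to 0.29 for glutathione, -0.098 to 0.01 for nucleotides and cofactors, 0.27 to 0.45 for uncoupling protein-like and 0.36 to 0.44 for unsettled carriers.

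Signs turned for 8 of the 19 uncalled carriers reported. With the length correction without and with the block, SLC25A12 was at 0.046 and 0.055, SLC25A23 at 0.028 and 0.025, SLC25A24 at 0.065 and 0.061 and SLC25A25 at 0.032 and 0.071. With the GC correction without and with the block, SLC25A23 was at 0.046 and 0.033, SLC25A25 at 0.016 and 0.046, SLC25A36 at -0.014 and -0.021 and SLC25A51 at 0.025 and 0.0093. SLC25A17 was at -0.028 with library totals and -0.033 with no filter. With 1 library left out at a time, SLC25A17 ranged from -0.052 to 0.055, SLC25A20 from -0.068 to 0.27, SLC25A24 from -0.11 to 0.031, SLC25A25 from -0.20 to 0.035, SLC25A36 from -0.0025 to 0.19 and SLC25A51 from -0.19 to 0.085. The cause of these changes was not tested.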
